A study of Mus musculus with 8 samples.

Results

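The mitochondrial respiratory chain and ATP synthase are built from subunits encoded partly in the nucleus and partly in mitochondrial DNA. Nuclear-encoded members of this set were described here across ACSS2 knockdown and spatial object training in the mouse dorsal hippocampus. They were chosen by gene symbol (Nduf, Sdh, Uqcr, Cox4 to Cox8 and Atp5 names) and by a mean of at least 10 normalized read counts over the 8 libraries. Of 84 matching symbols among 24498 genes, 75 met the minimum: 34 of complex I by name (Ndufa4 is kept there, though it is now known as a subunit of complex IV), 4 of complex II, 8 of complex III, 13 of complex IV and 16 of ATP synthase, also called complex V. Mitochondrially encoded subunits were not analysed here.

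The study crossed 2 factors in male C57BL/6J mice aged 10 to 12 weeks, giving 4 groups of 2 libraries each. Dorsal hippocampus received AAV2/9 carrying a U6-driven hairpin against Acss2 with CMV-driven EGFP (the knockdown vector) or CMV-driven EGFP alone (the control vector), so both groups had surgery, virus and EGFP. ACSS2 makes acetyl-CoA from acetate. At 3 weeks after injection, trained mice explored 3 objects in 3 trials of 6 min and were killed 30 min later, while untrained mice are labelled as home cage controls. The column names of the deposited values give each library a number: KD.249 and KD.251 are trained knockdown, KD.253 and KD.255 untrained knockdown, eGFP.250 and eGFP.266 trained control, and eGFP.254 and eGFP.268 untrained control. Whether a library came from 1 mouse or from several is not given in the labels, so the p-values reflect library-to-library spread, which may be partly technical. The control vector holds no hairpin, so the loss of ACSS2 and the presence of a hairpin cannot be told apart.

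Complex I takes electrons from NADH and complex II, which is also the succinate dehydrogenase of the citrate cycle, takes them from succinate. Complex III passes them to cytochrome c, complex IV passes them to oxygen, and ATP synthase uses the resulting proton gradient to make ATP. Neurons draw most of their ATP from this system, and synaptic transmission is among its main costs. Promoters of its nuclear genes are known as a target of the transcription factor NRF1, and other factors (GABP of the ETS family, YY1, SP1) also act on many of them.

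Promoter windows of 300 bases (250 before to 50 after the start, RefSeq, build GRCm38.p6) were available for 61 of the 75 members. Both strands were searched for 5 exact words, and none of these words contains another. The NRF1 word GCGCATGCG was in 7 members (11.5%: Atp5g2, Atp5k, Cox6a1, Ndufa11, Ndufa8, Uqcr11 and Uqcrc1), against 1.81% of all 27025 windows. The YY1 word AAGATGGCG was in 11.5% of member windows against 1.49% of all, and the ETS word ACTTCCGG in 8.20% against 4% of all. The SP1 word GGGGCGGGG was in 16.4% of member windows against 11.6% of all. The TATA box word TATAAA was in 6.56% of member windows against 14.2% of all. A match is a description of letters and not a binding site. The NRF1 and YY1 words were shortened after a first search had been seen, so their shares are no test. All windows were compared without matching for base composition or expression. The 250 bases before the start are shown for 3 members with the NRF1 word on both strands, in capitals. Of these, Atp5k and Cox6a1 had opposite orders between the trained libraries of each vector, as described further on. A relation of the word to library profiles was not tested. Atp5k (chr5:108434400-108434649, minus strand) encodes a small membrane subunit of ATP synthase, Cox6a1 (chr5:115348959-115349208, minus strand) a subunit of complex IV, and Ndufa11 (chr17:56717512-56717761, plus strand) a membrane-arm subunit of complex I.
Atp5k: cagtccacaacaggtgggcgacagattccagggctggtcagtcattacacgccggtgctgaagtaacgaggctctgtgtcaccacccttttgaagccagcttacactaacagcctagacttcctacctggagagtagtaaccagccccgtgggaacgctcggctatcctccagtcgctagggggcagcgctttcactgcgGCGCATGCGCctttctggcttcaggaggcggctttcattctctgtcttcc
Cox6a1: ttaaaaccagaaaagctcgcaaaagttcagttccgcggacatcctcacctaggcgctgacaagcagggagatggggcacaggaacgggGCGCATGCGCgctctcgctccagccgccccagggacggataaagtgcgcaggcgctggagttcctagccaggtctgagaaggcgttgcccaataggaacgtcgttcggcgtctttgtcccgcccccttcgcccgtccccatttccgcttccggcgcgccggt
Ndufa11: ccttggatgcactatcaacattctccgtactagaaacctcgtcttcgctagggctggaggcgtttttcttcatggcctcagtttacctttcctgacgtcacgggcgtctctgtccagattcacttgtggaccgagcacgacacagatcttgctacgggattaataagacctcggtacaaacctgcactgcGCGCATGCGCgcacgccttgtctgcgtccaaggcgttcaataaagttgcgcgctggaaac

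Depth bears on every value. KD.255 held 272456 reads in genes and KD.251 held 1484318, and the remaining 6 libraries held 6537749 to 9863728. One normalized value step, 1 read, was 15.6 in KD.255 and 2.88 in KD.251, and at most 0.659 elsewhere. The median member had 13 reads in KD.255 and 86 in KD.251, and medians elsewhere were 296 to 562. In KD.255, 11 members had 3 reads or fewer, and Atp5g2, Cox6b2 and Ndufb6 had 0, which allows up to 46.7 normalized counts each. The targeted gene Acss2 had 25.6, 57.7, 25.0 and 15.6 normalized counts in KD.249, KD.251, KD.253 and KD.255, against 87.4, 67.5, 58.2 and 82.0 in eGFP.250, eGFP.266, eGFP.254 and eGFP.268. KD.249, KD.253 and KD.255 thus lay below all controls, KD.255 on 1 read. KD.251, with 20 reads, lay below eGFP.254 by less than its step of 1 read, so KD.251 and eGFP.254 cannot be told apart. The limma log2 difference between the vectors was -1.37 (SE 0.33, adjusted p = 0.333).

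Levels differed widely between members. Mean normalized read counts over the 8 libraries ran from 10.9 for Atp5g2 to 2105 for Atp5b, with a median of 243 over members, against 121 over the 12681 genes tested. The catalytic beta subunit of ATP synthase (Atp5b, chr10:128083273-128090391) and the alpha subunit (Atp5a1, 1806) led on this scale, followed by the flavoprotein of complex II (Sdha, 1601). Per kilobase of transcript, the small subunits Atp5k (1914), Atp5j (1737) and Uqcrh (1423) were highest, and the c-ring gene Atp5g1 was lowest at 4.99. That rank depends on the annotated transcript used, 4715 bases for Atp5g1 against 731 for Atp5g2 and 723 for Atp5g3. In mean count, Atp5g1 (23.5) lay above Atp5g2 (10.9). Member coding sequences were short, with a median of 432 bases and a range of 156 to 2181, against a median of 1474.5 over all tested genes with an annotated coding sequence. They lay on 19 chromosomes.

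The 9 symbols under the minimum were Atp5l (5.80), Ndufa4l2 (4.76), Cox4i2 (4.30), Ndufb4 (3.61), Cox7b2 (2.74), Cox7a1 (2.20), Cox8b (2.19), Ndufs5 (0.0727) and Cox8c (0). Atp5g2 at 10.9 was the member just inside. Some of the 9 are known as forms of other tissues or states: Cox7a1 and Cox8b of muscle, Cox8c and Cox7b2 of testis, and Cox4i2 and Ndufa4l2 of oxygen-sensing or low-oxygen cells. Ndufs5, Ndufb4 and Atp5l are standard subunits of every tissue. Of all 50-base words in their annotated transcripts, 84.8% were shared with other genes' transcripts for Atp5l, 37.0% for Ndufb4 and 31.1% for Ndufs5, including 12 pseudogenes for Atp5l, while the other 6 shared none. Uniquely aligned reads can miss such stretches, so levels of these genes are uncertain. Ndufs5 had 1 read in eGFP.254 and 0 in every other library, though most of its words were not shared. The part of this sharing in the low values was not tested. Among members, 43 of 75 shared at least 1 such word and 4 shared over 50 percent: Atp5g2 (87.4%), Ndufa12 (53.8%), Cox7c (53.0%) and Atp5o (50.3%). Mean normalized counts of these 4 were 10.9, 280, 45.8 and 277 in this order. Members sharing with a pseudogene numbered 30. Sharing was counted on either strand and without regard to position. Genes that overlap a member thus count too, and reads there can still align uniquely.

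Complex IV has paired subunits with tissue-specific forms, and the ubiquitous form was higher in each pair per kilobase of transcript. In the 4 control libraries, Cox4i1 averaged 904 ± 240 normalized counts per kilobase and Cox4i2 6.95 ± 4.11. Cox7a2 averaged 152 ± 42.1 and Cox7a1 5.81 ± 2.07. Cox8a averaged 777 ± 340 and Cox8b 10.2 ± 17.3. The gap was narrower for Cox6b1, at 447.1 ± 85.97, against 54.8 ± 31.1 for Cox6b2, known as a testis form. It was narrowest for Cox6a1, at 263 ± 53.6, against 57.3 ± 17.1 for Cox6a2, known as a heart and muscle form (SD, n = 4 each), a ratio of 4.59.

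No member passed the test for the knockdown vector, but most had lower fitted values with it. Averaged over training, 69 of 75 members were lower in knockdown than in control libraries and 6 were higher, against 55.7% of all tested genes lower and 44.3% higher. The median log2 difference was -0.21 over members, against -0.03 over all genes. At an adjusted p under 0.05, limma called 0 of 75 members and 0.103% of all genes. edgeR also called 0 members, with 0.962% of all genes, and DESeq2 0 members, with 1.54%. At an unadjusted p under 0.05 limma had 7 members (9.33%), against 5.59% of all genes. None of the 75 members had all 4 knockdown libraries below all 4 control libraries, against 1.98% of all genes. In bulk tissue, fewer cells of a type and less RNA per cell cannot be told apart.

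The share of all reads in genes that came from the 75 members shows the same set without a fold change per gene. It was 0.604%, 0.715%, 0.554% and 0.646% in KD.249, KD.251, KD.253 and KD.255, against 0.732%, 0.693%, 0.664% and 0.705% in eGFP.250, eGFP.266, eGFP.254 and eGFP.268. The 4 knockdown libraries averaged 0.630% ± 0.0682 and the 4 control libraries 0.699% ± 0.0280 (SD). KD.249, KD.253 and KD.255 lay below every control library and KD.251 lay above 3 of the 4, so the groups overlapped. The 95% Wilson interval of the shallowest library, KD.255, was 0.617% to 0.677%, and it covers counting error only.

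**Figure D1:**
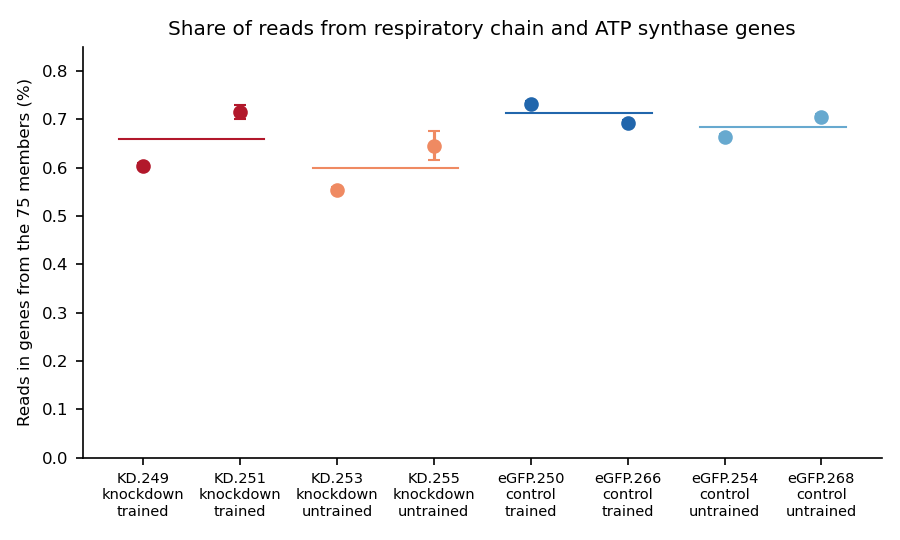
Share of reads in genes that came from the 75 members (vertical axis, %, from 0) in each library (horizontal axis), with 95% Wilson intervals and a line at each group mean. Knockdown libraries are on the left in red tones and control libraries on the right in blue tones. KD.253 is lowest at 0.554% and eGFP.250 highest at 0.732%.

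Library KD.251 stood apart from the other knockdown libraries. With each member set against its own mean over the 8 libraries, the median log2 level was -0.21, -0.27 and -0.14 in KD.249, KD.253 and KD.255. In KD.251 it was 0.13, within the control range of 0.01 to 0.20. Its Acss2 level was also the nearest of the knockdown libraries to the control libraries, and so was its summed level of 12 interferon-response genes (1209). That sum still lay above the 331 to 457 of the control libraries. The sum of 10 microglial markers in KD.251, 1341, also lay above the 933 to 1123 of the control libraries. Whether the knockdown took full effect in the library labelled KD.251, or whether its label is right, was not tested, and values that include it carry this doubt: the knockdown median in trained mice was -0.13 with it and -0.31 without it. Members lower than in every control library numbered 40 in KD.249, 15 in KD.251, 41 in KD.253 and 32 in KD.255. Over all tested genes these shares were 23.0%, 24.9%, 20.9% and 35.0%. Both deep knockdown libraries, KD.249 and KD.253, lay below all controls in 24 members, against 9.57% of all genes. Without the shallow libraries KD.251 and KD.255, the averaged knockdown median was -0.34, against -0.01 over all genes, with 67 members lower and 0 called, while limma called 1.67% of all genes. The smallest adjusted p over members was then 0.140, for Cox6c.

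**Figure D2:**
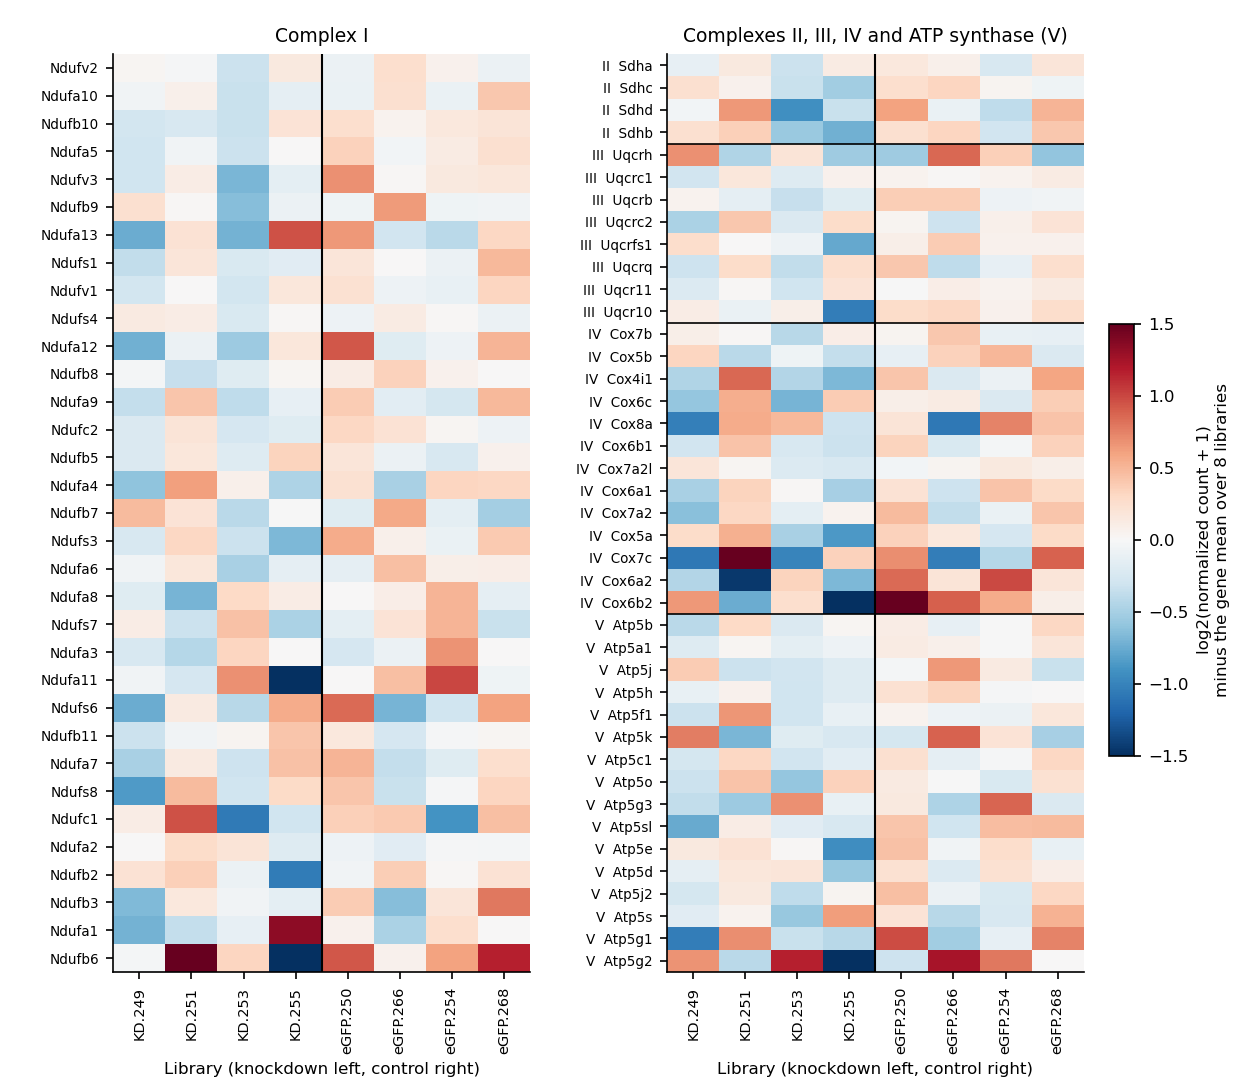
Members (rows, ordered within a complex by mean level) in each library (columns, knockdown left and control right), as log2(normalized read count + 1) minus the gene mean over the 8 libraries. KD.249 and KD.253 are mostly blue, and KD.251, eGFP.250 and eGFP.268 mostly red. KD.255, eGFP.254 and eGFP.266 are more mixed. The dark cells of Ndufb6, Cox6b2 and Atp5g2 in KD.255 are counts of 0, and the color scale ends at -1.5 and 1.5.

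Summed levels of marker lists also differed between libraries: those of microglia and of the interferon response were higher in every knockdown library than in every control library, while those of neurons and choroid plexus overlapped between the vectors. Summed normalized counts of 10 microglial markers were 1341 to 1955 in knockdown and 933 to 1123 in control libraries. Those of 12 interferon-response genes were 1209 to 5580 in knockdown libraries, lowest in KD.251, against 331 to 457 in control libraries. The 15 markers of pyramidal and granule neurons, none at 0 in any library, summed to 57237 to 69515 in knockdown and 61670 to 78096 in control libraries, and their median log2 difference was -0.21. The 9 choroid plexus markers summed to 1306 to 3511 in knockdown libraries, where up to 4 were at 0, and to 71925 in eGFP.250, 18652 in eGFP.254, 1983 in eGFP.266 and 712 in eGFP.268. The part of these in the members' values was not tested.

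By complex, the averaged knockdown median was -0.22 for complex I, -0.30 for complex II, -0.13 for complex III, -0.21 for complex IV and -0.19 for ATP synthase. All 6 higher members were accessory subunits of complex I, the largest being Ndufa2 at 0.15. The 7 core subunits of complex I, which carry the flavin and iron-sulfur clusters or frame the quinone site, were all lower, with a median of -0.19. Examples are Ndufs3 with -0.46, the lowest of them, Ndufs1 with -0.29, Ndufv1 with -0.19 and Ndufs7 with -0.12. The 5 subunits of the F1 head of ATP synthase had a median of -0.19, with Atp5b at -0.15, Atp5a1 at -0.19, Atp5c1 at -0.20, Atp5d at -0.18 and Atp5e at -0.27.

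Cox6a2 (chr7:128205435-128206387, minus strand) had the largest difference among the 7 members with an unadjusted p under 0.05. It had 18.4, 8.65, 32.3 and 15.6 normalized counts in KD.249, KD.251, KD.253 and KD.255, against 46.5, 29.2, 51.2 and 28.8 in eGFP.250, eGFP.266, eGFP.254 and eGFP.268. KD.253 lay inside the control range and the other knockdown libraries below it, KD.251 and KD.255 with 3 reads and 1 read. Its limma log2 difference was -1.11 (SE 0.41, adjusted p = 0.814), on the log2(normalized read count + 1) scale used for all differences. The difference was -0.85 in edgeR and -0.60 in limma without the shallow libraries KD.251 and KD.255.

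Ndufv3 (chr17:31520115-31531331, plus strand) encodes an accessory subunit of the NADH-binding arm of complex I. It had 460, 612, 351 and 513 normalized counts in KD.249, KD.251, KD.253 and KD.255, against 912, 572, 625 and 640 in eGFP.250, eGFP.266, eGFP.254 and eGFP.268. Only KD.251 reached the control range. The limma log2 difference was -0.51 (SE 0.19, adjusted p = 0.814), and in edgeR the adjusted p was 0.380. Uqcrb (chr13:66900617-66905378, minus strand), the quinone-binding subunit of complex III, had 511, 450, 388 and 435 in the knockdown libraries in the same order, against 638, 636, 466 and 477 in the control libraries. Its log2 difference was -0.30 (SE 0.12, adjusted p = 0.852 in limma), and KD.249 lay inside the control range. The other 4 were Atp5h of the ATP synthase stalk (-0.27), Ndufa5 (-0.33) and Ndufs3 (-0.46) of complex I, and Atp5sl (-0.53), which is named after ATP synthase and is known as DMAC2, a complex I assembly factor.

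The lowest fitted values belonged to genes with few reads. Cox6b2 had a log2 difference of -1.67 (SE 0.83) and Ndufb6 of -1.38 (SE 1.066), with 0 reads each in KD.255. Ndufb6 had 25.1, 83.7, 32.3 and 0 in KD.249, KD.251, KD.253 and KD.255, against 49.6, 26.8, 39.5 and 58.5 in the control libraries, so KD.255 was the lowest and KD.251 the highest of all 8. Its log2 difference was -0.19 in edgeR, and that of Cox6b2 was -0.74. For Atp5g2, the limma difference of -0.86 (SE 0.98) became 0.16 in edgeR. By coding length, members at or under the median length had a median difference of -0.21 and longer ones -0.22. Across the 75 members, Spearman's rho of the difference was -0.01 with coding length and 0.22 with mean level, as a description of genes that share libraries.

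Within untrained mice, 67 members were lower in knockdown libraries and 8 higher, with a median log2 difference of -0.24, against -0.05 over all genes, 55.2% of which were lower and 44.8% higher. Both knockdown libraries lay below both control libraries in 27 members and above them in 1, against 16.8% and 14.4% of all genes. Within trained mice, 56 members were lower and 19 higher, with a median of -0.13, against -0.00 over all genes, 50.7% of which were lower and 49.3% higher. Groups did not overlap for 13 lower members and 1 higher member, against 14.8% and 14.4% of all genes. No member passed in untrained mice, where limma called 0%, edgeR 0.181% and DESeq2 0.434% of all genes. None passed in trained mice, where the tools called 0.00789%, 0.0315% and 0.26%. Leaving out both shallow libraries, limma called 0.528% and 0.623% of all genes in untrained and trained mice, again with 0 members. At an unadjusted p under 0.05, limma had 2 members in untrained mice, against 4.5% of all genes, and 1 in trained mice, against 2.36%. The trained median was -0.31 without KD.251 and 0.022 without KD.249, so its size and direction rest on which trained knockdown library is used.

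**Figure D3:**
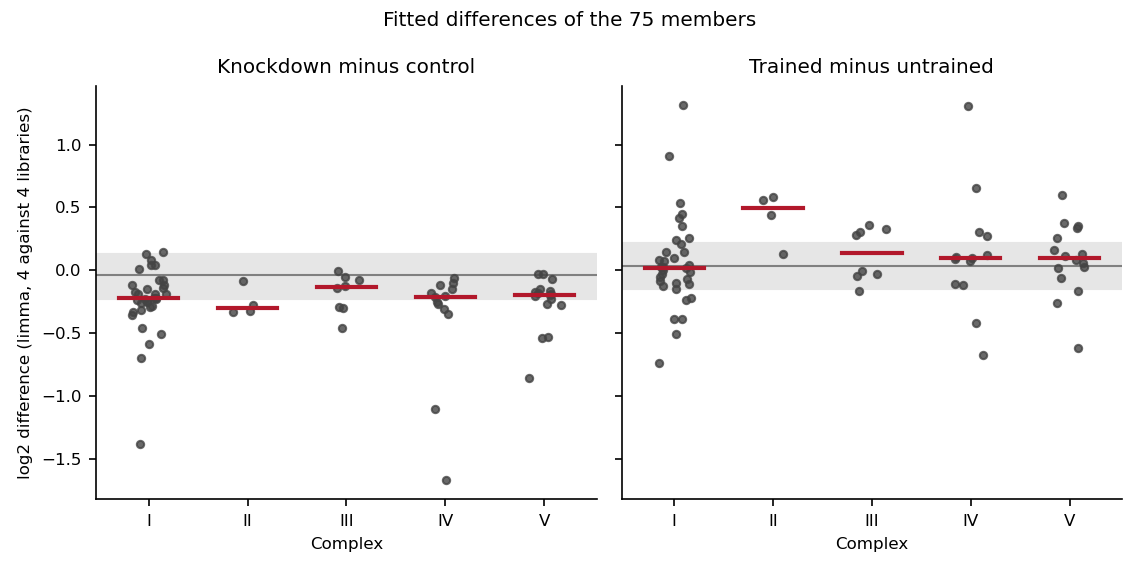
Fitted log2 differences of the 75 members (points) by complex, knockdown minus control on the left and trained minus untrained on the right, with red bars at complex medians. The gray line is the median and the gray band the middle 50 percent of all tested genes. For knockdown, all 5 complex medians lie below the line, and for training the complex II median of 0.50 lies above the band.

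Training gave no call among the members. Averaged over vectors, 48 of 75 members had higher and 27 lower fitted values in trained than in untrained libraries, with a median log2 difference of 0.08, against 0.03 over all genes, 55.1% of which were higher and 44.9% lower. In limma 0 members and 0% of all genes passed, with 10 members (13.3%) at an unadjusted p under 0.05, against 4.86% of all genes. edgeR also called 0% of all genes, and DESeq2 called 0.0631%, none a member. Only Sdhc had all 4 trained libraries above all 4 untrained ones, and only Ndufa3 the reverse, against 1.65% and 1.62% of all genes. Both gaps were close to or under 1 read of a shallow library. Sdhc had 211 in KD.251 against 208 in eGFP.254, where 1 read of KD.251 is 2.88. Ndufa3 had 156 in KD.255 against 146 in eGFP.266, where 1 read of KD.255 is 15.6. With the control vector, the median was -0.02, with 37 members higher and 38 lower, against 52.1% and 47.9% of all genes. Groups did not overlap for 10 higher and 9 lower members, against 14.5% and 14.3% of all genes. With the knockdown vector, the median was 0.17, with 50 members higher and 25 lower, against 54.1% and 45.9% of all genes. Groups did not overlap for 17 higher and 5 lower members, against 16.4% and 14% of all genes. Without KD.251 the knockdown-vector median was -0.037, with 35 members higher and 40 lower, and the median averaged over vectors was -0.04, with 34 higher and 41 lower, so these directions rest on that library. For the difference of the 2 responses, the members' median was 0.14, with 51 higher and 24 lower, against 52.9% and 47.1% of all genes, and without KD.251 it was -0.066, with 36 higher and 39 lower. No member passed within either vector or for this difference, where limma and edgeR called 0% of all genes, and DESeq2 called 0.0315% with the control vector and 0% otherwise. At an unadjusted p under 0.05 limma had 1 member with the control vector, 8 with the knockdown vector and 0 for the difference, against 1.43%, 4.48% and 0.883% of all genes.

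Complex II had the highest training median of the 5 complexes, at 0.50, with 4 of 4 members above 0. Against each gene's mean over the 8 libraries, its median was 0.10 and 0.25 in trained and -0.45 and -0.43 in untrained knockdown libraries. With the control vector it was 0.25 and 0.20 in trained libraries, -0.27 in eGFP.254 and 0.29 in eGFP.268. Only eGFP.254 of the untrained control libraries thus lay below the trained ones. Sdhb (chr4:140961203-140979193, plus strand), the iron-sulfur subunit, had 183 and 199 normalized counts in trained knockdown libraries, against 105 and 93.3 in untrained knockdown libraries. With the control vector it had 183 and 194 in trained, against 126 and 204 in untrained libraries. Values separated with the knockdown vector and overlapped with the control vector. The log2 difference with training was 0.94 with the knockdown vector (SE 0.27, adjusted p = 0.802 in limma) and 0.23 with the control vector. The difference of these responses was 0.72 (SE 0.39, adjusted p = 1.00 in limma).

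Sdhc (chr1:171127165-171150603, minus strand), a membrane anchor of complex II, had 237 and 211 in trained knockdown, against 159 and 140 in untrained knockdown libraries. With the control vector it had 240 and 252 in trained, against 208 and 193 in untrained libraries. Trained libraries were the higher ones with each vector, and the averaged log2 difference was 0.44 (SE 0.14, adjusted p = 0.873 in limma). Sdhd, the second membrane anchor, had 152 and 245 in trained knockdown, against 82.4 and 124 in untrained knockdown libraries, and 239 and 146 in trained control, against 120 and 223 in untrained control libraries. It separated with the knockdown vector and overlapped with the control vector. In KD.255 these values rest on 6 reads of Sdhb, 9 of Sdhc and 8 of Sdhd, and the Sdhd gap between KD.255 and KD.249 is under 2 reads of KD.255. Sdha, the catalytic flavoprotein and by far the most abundant of the 4, had 1463 and 1754 in trained knockdown, against 1271 and 1726 in untrained knockdown libraries, and 1767 and 1674 in trained control, against 1345 and 1807 in untrained control libraries. Its averaged difference of 0.13 (SE 0.15) was within its error. The comparison of training with the knockdown vector and that of knockdown in untrained mice share KD.253 and KD.255, whose low Sdhb, Sdhc and Sdhd values enter both: knockdown differences in untrained mice were -0.69, -0.42 and -0.69 for the 3 genes.

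**Figure D4:**
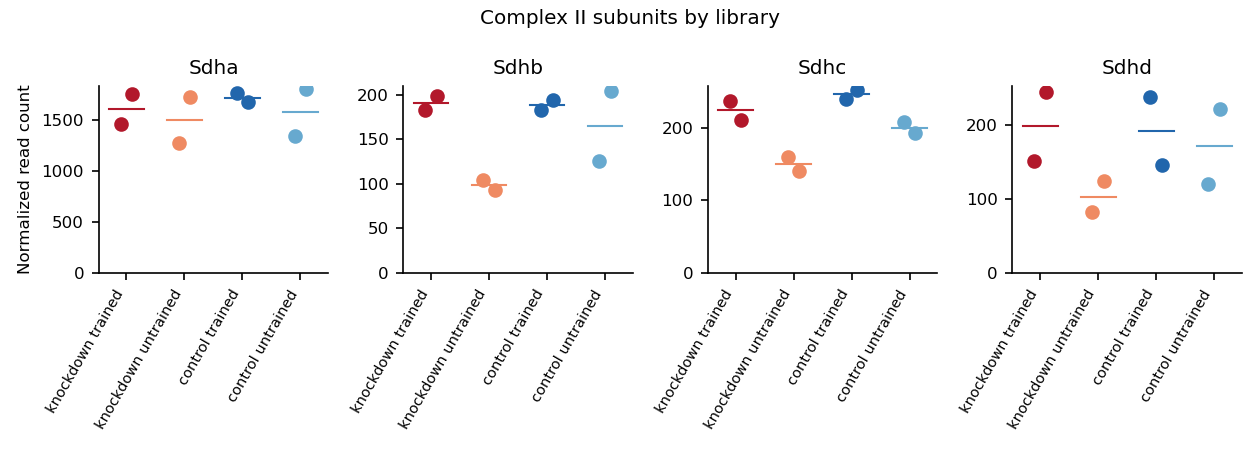
Normalized read counts (vertical axes, from 0) of the 4 complex II genes in each library (points), with a line at each group mean of 2 libraries. Sdhb had 105 and 93.3 in untrained knockdown libraries and at least 126 in every other library, while Sdha overlapped between the knockdown groups.

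Other members with the smallest p for training moved in both directions. Higher fitted values were found for Uqcrb (0.33, SE 0.12), Ndufb7 (0.53, SE 0.20), Cox5a (0.65, SE 0.26), which is an early-assembling subunit of complex IV, and Ndufc1 (0.91, SE 0.34). Ndufb9 (0.42) and Atp5h (0.25) were the other higher ones. In KD.255, an untrained library, Cox5a had 2 reads and Ndufc1 had 4. Both genes separated with the knockdown vector and overlapped with the control vector. There Cox5a had 73.4 and 64.1 in trained, against 48.3 and 70.5 in untrained libraries. Ndufc1 had 98.8 and 101, against 40.7 and 105. Lower values were found for Ndufa3 (-0.50, SE 0.18) and the c-ring gene Atp5g3 (-0.62, SE 0.27). Each had an adjusted p of 0.873 in limma. Ndufa3 had 131 and 115 normalized counts in trained knockdown, against 195 and 156 in untrained knockdown libraries, and 130 and 146 in trained control, against 248 and 157 in untrained control libraries. By complex, training medians were 0.02 for complex I, 0.14 for complex III, 0.10 for complex IV and 0.10 for ATP synthase.

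Members did not form a single profile over the 8 libraries. Each member's log2 value was correlated with the median of the other members, as a description over 8 libraries that share depth and batch. The correlation was positive for 63 of 75 members, highest for Atp5a1 and Atp5c1 (r = 0.93 each), and negative for 12. The lowest were Uqcrh (-0.51), an acidic subunit of complex III known to help cytochrome c bind, Ndufs7 (-0.45) and Atp5k (-0.42). Over 2775 pairs of members, the median r was 0.25 and 65.1% were positive. It was 0.21 for pairs within a complex and 0.26 for pairs across complexes. No matching values over all tested genes are given, so whether members vary together more than other genes do was not tested.

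Uqcrh had 1159, 528, 824 and 498 normalized counts in KD.249, KD.251, KD.253 and KD.255, against 499, 1312, 926.5 and 480 in eGFP.250, eGFP.266, eGFP.254 and eGFP.268. Atp5k had 1127, 410, 581.96 and 560 in the same knockdown libraries, against 552, 1222, 759 and 469 in the control libraries. The highest library of each vector was thus a trained one (KD.249, eGFP.266), and the other trained library of each vector was among the 2 lowest of its vector for both genes. Cox4i1, the regulatory subunit of complex IV that binds ATP and ADP, had the reverse order between the trained libraries of each vector, with 435, 1088, 438 and 373 in the knockdown libraries, against 796, 513, 562 and 895 in the control libraries. For Uqcrh and Atp5k, the trained libraries of a vector differed from each other by more than any group means did. Cox6a1, whose promoter carries the NRF1 word as that of Atp5k does, had 94.2, 167, 134 and 93.3 in the knockdown libraries, against 153, 107, 178 and 162 in the control libraries. Correlations with the other members varied among the 7 members with this word. They were 0.79 for Uqcrc1, 0.62 for Cox6a1, 0.56 for Uqcr11, 0.03 for Ndufa11, -0.07 for Atp5g2, -0.37 for Ndufa8 and -0.42 for Atp5k. A relation of the word to the profiles was not tested.

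**Figure D5:**
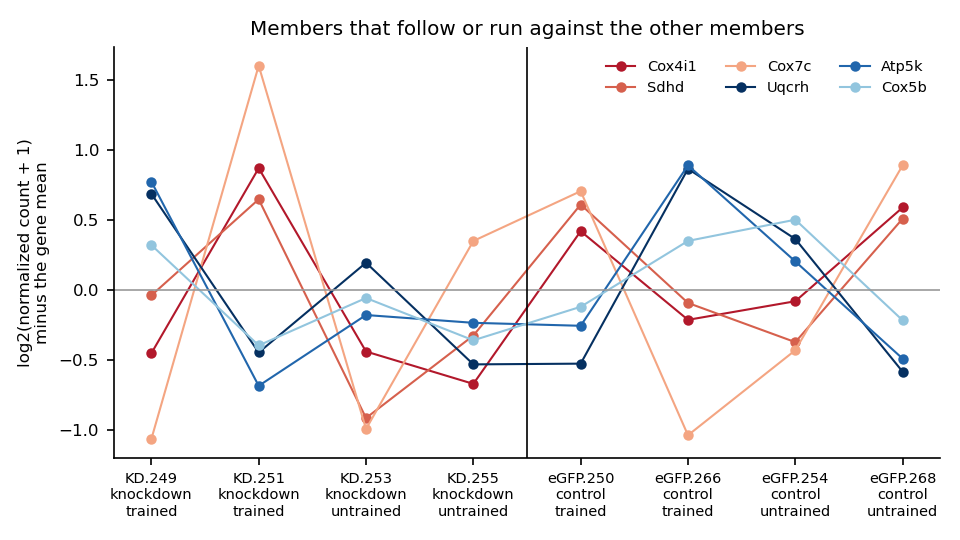
Log2(normalized read count + 1) minus the gene mean (vertical axis) over the 8 libraries (horizontal axis, knockdown left and control right) for 3 members with a positive and 3 with a negative correlation to the other members. Uqcrh and Atp5k are highest in KD.249 and eGFP.266, where Cox7c is lowest, and lines join libraries only to show each gene's profile.

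Base composition also varied with the library. Over all tested genes with an annotated coding sequence, Spearman's rho of a gene's GC percent with its relative level was -0.02, -0.31, 0.33 and -0.11 in KD.249, KD.251, KD.253 and KD.255, against -0.02, -0.00, 0.52 and -0.17 in eGFP.250, eGFP.266, eGFP.254 and eGFP.268. Among members it was 0.01, -0.23, 0.21 and -0.12 in the knockdown libraries in the same order, against -0.04, 0.09, 0.29 and -0.14 in the control libraries. The untrained libraries of each vector thus had opposite signs. Members had a median GC of 51.6%, close to the 50.4% of all genes, and rho of GC with the members' averaged difference was -0.17 for knockdown and -0.11 for training. The part of base composition in single members' differences was not tested. In the 6 deep libraries, the ratio of highest to lowest level was smallest for Uqcr10 (1.19) and was also small for Atp5a1 (1.29), and it was largest for Atp5g1 (4.36), Cox7c (4.04) and Cox8a (3.55).

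The 5 genes outside the set whose log2 values followed the members' median most closely were AF357359, Slc39a9, Msmo1, Chid1 and Hsd17b7, with r = 0.97 each over 8 libraries. Msmo1, an enzyme of cholesterol synthesis, had 169, 560, 163 and 218 normalized counts in KD.249, KD.251, KD.253 and KD.255, against 579, 449, 351 and 474 in eGFP.250, eGFP.266, eGFP.254 and eGFP.268. As for the members' median, KD.251 lay within the control range and the other knockdown libraries below it. The 5 genes were picked from all tested genes outside the set by this correlation. A shared order of libraries was thus largely set by the choice and is no separate observation.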

How the data were processed

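The authors deposited a normalized signal per gene and library. The tools named in the submitters' processing notes are bcl2fastq 02.14.01.07, STAR 2.3.0, HTSeq 0.6.1, DESeq and bedtools. They name mm10 as the build. Annotation and strand setting are not given in these sources, so overlapping and antisense genes could not be told apart. In each library, 100% of the deposited values were whole multiples of 1 unit (relative tolerance 1e-06), so whole reads were recovered. Counter summary entries (5 of 24503) stayed out. The 2 libraries of each group were distinct: their chi-square divided by its degrees of freedom was 2.16 to 36.0.

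In R 4.3.3, limma 3.58.1 with an intensity trend was fitted to log2(normalized read count + 1) for the 12681 genes whose mean over all libraries was at least 10. All 4 groups shared the spread, with Benjamini-Hochberg adjustment over all tested genes and a threshold of 0.05. Averaged comparisons used an additive model. The unit was not raw counts, so edgeR 4.0.16 (quasi-likelihood) and DESeq2 1.42.0 on recovered reads were alternatives. The limma step was tested on simulated data.

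Members and gene lists were chosen with earlier results of these data known, so no test over the list was made. Named genes were the core subunits, isoform pairs, the highest and lowest member per complex, members at the threshold, Acss2 and the 5 most similar genes, and members with the smallest p or an extreme profile were chosen after their values were seen. Gene coordinates, lengths and GC are from GENCODE (GRCm38), and promoters from RefSeq. Python 3.11.15 with SciPy 1.17.1 computed descriptions. The NRF1 and YY1 promoter words were each shortened by 1 letter after a first search with the longer words had been seen. For 1 member that was fitted and counted with the others, individual values are not reported here.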

Additional observations from a re-analysis of the deposited data

Results flagged for a closer look

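Over 84 groups of 4 libraries of 1 vector, each tested for a library far from the others, chance alone gives about 1 flag in 20 groups, or 4.2 here, and 5 were found. The figure given is the gap of the far library to its nearest neighbour divided by the range, and each was above Dixon's 95% critical value. Library KD.251 was far above the other knockdown libraries for Cox4i1 (0.850; 1088, against 373 to 438 in the others) and for Cox6b1 (0.895; 340, against 202 to 214). Among control libraries, eGFP.254 was far below for the median of complex II (0.831), and eGFP.266 was far above for Uqcrfs1 (0.927; 312, against 249.3 to 253.4) and far below for Ndufa4 (0.878; 167, against 276 to 296).

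Cox7a2l, a factor of respiratory supercomplexes, had 209 and 188 normalized counts in trained knockdown, against 160 and 156 in untrained knockdown libraries, and 179 and 190 in trained control, against 204 and 195 in untrained control libraries. Trained libraries were thus higher with the knockdown vector and lower with the control vector. The difference of the responses was 0.436 log2 units (SE 0.298), and it did not pass the limma test (adjusted p = 1.00).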

How the results depend on the processing

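No paired analysis was possible because the deposited column names carry no replicate number, so the planned replicate block was not run. Over 18 other settings, the 36 single genes followed kept their call in the averaged knockdown and averaged training comparisons, wherever a setting tested them. No member passed under edgeR, DESeq2, other pseudocounts, other filters, TMM, a term for the set of libraries or without both shallow libraries. One setting chosen after seeing the data, edgeR without KD.255, also called no member, with an averaged knockdown median of -0.22. Leaving out 1 library at a time, members called ranged from 0 to 5 for knockdown in untrained mice, from 0 to 5 for training with the knockdown vector and from 0 to 1 for the interaction. These calls came without KD.253, when KD.255 stood alone for its group, was assumed to vary like the other groups, and 10.2%, 9.79% and 5.6% of all genes were called. The first 5 were Atp5g2, Cox6b2, Ndufa11, Ndufb6 and Uqcr10, each with 0 to 2 reads in KD.255. In the other 4 comparisons the range was 0 to 0.

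The averaged knockdown median ranged from -0.30 to -0.13 over left-out libraries, the untrained one from -0.35 to -0.17, the trained one from -0.31 to 0.022, the averaged training median from -0.04 to 0.14, training with the control vector from -0.12 to 0.13, training with the knockdown vector from -0.037 to 0.32, and the interaction from -0.066 to 0.27. Without both shallow libraries, the trained knockdown median was -0.31. Depth limits members with few reads in KD.255 most, where a difference of single reads was not detectable.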

Other observations

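Neighbouring pathways gave averaged knockdown medians close to that of the respiratory chain, and no gene in the following lists passed in limma, which called 0.103% of all genes. Assembly factors, the helper proteins that build the complexes, had a median log2 difference of -0.21 with 31 of 41 lower in knockdown than in control libraries. Bcs1l, which inserts the iron-sulfur protein into complex III, had -0.92 (SE 0.37), and Atpif1, the inhibitor of ATP synthase, had -0.42 (SE 0.17). All 12 electron and metabolite carriers were lower (median -0.16), among them Cyc1, the cytochrome of complex III (-0.41, SE 0.19), and the mitochondrial creatine kinase Ckmt1 (-0.34, SE 0.14). Citrate cycle and pyruvate dehydrogenase genes had a median of -0.19 with 15 of 18 lower, and glycolysis genes -0.20 with 14 of 15 lower, Ldha having -0.44 (SE 0.20) and Pkm -0.31 (SE 0.12). Known regulators of mitochondrial genes had a median of 0.07, with 9 of 14 higher and 5 lower: Gabpa had 0.27 (SE 0.17), Nrf1 -0.10 (SE 0.21) and Esrrg -0.24 (SE 0.27). Ppargc1a had 0.17 (SE 0.18) on average, with 0.54 in untrained and -0.19 in trained mice.

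Genes of similar length were also described. Mitochondrial ribosomal protein genes had a median of -0.14 with 51 of 76 lower, cytosolic ribosomal protein genes -0.06 with 51 of 78 lower, and 1554 other genes with short coding sequences -0.10 with 996 lower. Markers of inhibitory neurons had -0.08 (5 of 9 lower), of astrocytes -0.00 (5 of 10 lower), of endothelial and mural cells -0.12 (7 of 10 lower), of oligodendrocytes 0.32 (10 of 10 higher) and of microglia 0.86 (10 of 10 higher). Interferon-response genes had 3.98 (12 of 12 higher, 7 passing in limma) and immediate early genes 0.64 (10 of 10 higher). Against each gene's mean over the 8 libraries, the immediate early median was 0.12 to 0.65 in knockdown libraries. It was 0.22 and 0.29 in trained control and -0.36 and -1.23 in untrained control libraries. For training, assembly factors had 0.15 (25 of 41 higher), cytosolic ribosomal protein genes 0.14 (57 of 78 higher) and oligodendrocyte markers 0.56 (10 of 10 higher), while regulators of mitochondrial genes had -0.16 (11 of 14 lower).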
